A study of Homo sapiens with 3 samples.

Results

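The genes described here code for the secreted Wnt ligands, their Frizzled receptors and 2 families of secreted Wnt antagonists, measured by RNA sequencing in CAMA1 cells. They were taken by symbol from the deposited gene table: 19 WNT rows, 10 FZD rows, 4 SFRP rows and 4 DKK rows, or 37 of 26485 entries. CAMA1 is an established human breast cancer cell line, labelled estrogen receptor positive and FGFR1-amplified, and used at a low passage. The series holds 1 untreated control group of 3 libraries, which the submitters call biological replicates, and the cells spent 48 h without estradiol before RNA was taken. No treated group was analysed, and all values come from 1 line. The questions this design allows are which members the cells transcribed, in what order, and how far the replicates differed.

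Wnt proteins are lipid-modified ligands that bind Frizzled receptors at the cell surface. With the co-receptors LRP5 and LRP6, this binding halts the breakdown of beta-catenin, which then acts with TCF and LEF factors in the nucleus. With other co-receptors, Frizzled proteins signal without beta-catenin, for example in planar cell polarity. Secreted Frizzled-related proteins (SFRP) carry a Frizzled-like ligand-binding domain and take up Wnt proteins outside the cell, whereas most Dickkopf proteins (DKK) bind LRP5 and LRP6. In the mammary gland, Wnt ligands take part in duct branching and in the upkeep of epithelial progenitors.

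The library totals were 26473939, 26592335 and 30745412 counts in replicates 1, 2 and 3. Levels are given in TPM, the transcript share after division by the deposited gene length and scaling to the library, as mean ± SD over libraries (n = 3). Detected means a minimum of 10 counts in every library, and not detected at most 3 counts in every library, the number that a count of 0 allows. The luminal markers were detected in 8 of 8 cases, with summed levels of 7703, 8531 and 9466 TPM in replicates 1 to 3. Of 9 fibroblast markers 3 were detected, summing to 185, 196 and 151 TPM, most of it COL3A1 (163 ± 23.4 TPM), while DCN, LUM, PDGFRA, THY1 and COL1A2 had 0 counts. Basal markers reached 43.5, 45.3 and 37.9 TPM in sum (4 of 5 detected), most of it ACTA2 (31.7 ± 3.32 TPM). KRT17 stood at 8.25 TPM, KRT14 at 1.48 TPM and TP63 at 0.682 TPM on average, and KRT5 had 4 counts in each library. Immune markers reached 13.0, 10.1 and 10.4 TPM (3 of 6). Of 5 endothelial markers none was detected, with at most 0.317 TPM in sum. Over all protein-coding entries 67.4% were detected. Of the immune markers, LYZ stood at 6.48 ± 1.17 TPM, CD68 at 3.08 ± 0.470 TPM and CD8A at 1.54 ± 0.260 TPM. PTPRC had 3, 3 and 2 counts, CD3E 1, 0 and 0, and MS4A1 0, 1 and 0.

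Of the 37 members 17 were detected, 4 had few counts and 16 were not detected. The detected share of the members was 45.9%, beside 54.9% of all entries and 67.4% of 19030 protein-coding entries. Their median level was 0.255 TPM, against 8.09 TPM over the protein-coding entries. The families differed in these counts. Detected were 9 of 10 Frizzled genes, 7 of 19 WNT genes, 1 of 4 DKK genes and 0 of 4 SFRP genes. In RNA of whole cultures, fewer cells that transcribe a gene and less RNA per cell cannot be told apart.

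**Figure D1:**
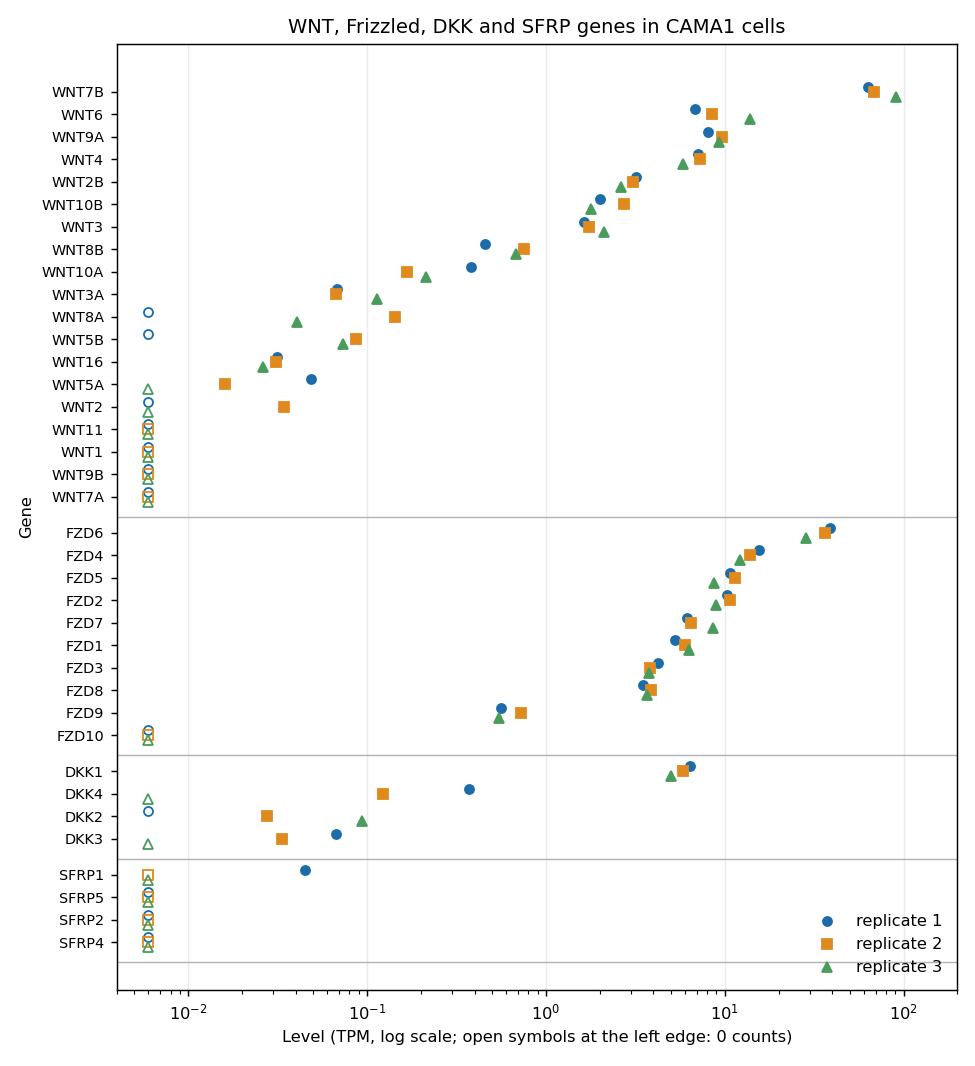
Level of each of the 37 members in each library, on a logarithmic TPM axis, with open symbols at the left edge for 0 counts; symbols mark replicates 1 to 3. WNT7B lies highest, between 63.3 and 90.5 TPM, FZD6 next between 28.5 and 38.7 TPM, and the SFRP genes hold nearly all of their values at 0.

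WNT7B was the leading ligand transcript of CAMA1 cells. It codes for a Wnt ligand known from lung and brain vessel development, and lies on chromosome 22 (45920366 to 45977128, minus strand, 4 exons). Its level was 63.3 TPM in replicate 1, 68.4 TPM in replicate 2 and 90.5 TPM in replicate 3, from 2455, 2672 and 4158 counts. Replicate 3 was highest, and all libraries lay above every other member in the same library. WNT7B took 68.5 ± 2.29% of the summed WNT TPM (68.0, 66.6 and 71.1% in replicates 1 to 3), and its mean of 74.1 ± 14.4 TPM was at or above that of 85.5% of protein-coding entries. Its close relative WNT7A (chromosome 3, 13818585 to 13880121) had 0 counts in each library.

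The next ligands stood far below WNT7B and close to one another. WNT6 (chromosome 2, 218859823 to 218874232) was measured at 6.83, 8.49 and 13.9 TPM, from 115, 144 and 278 counts. WNT9A, which takes part in joint formation (chromosome 1, 227921464 to 227947975), stood at 8.06, 9.70 and 9.34 TPM. The ranges of WNT6 and WNT9A overlapped, and WNT6 was the higher in 1 of 3 libraries. WNT7B exceeded WNT6 7.60-fold on the means, and between 6.50-fold and 9.27-fold within libraries.

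WNT4 (chromosome 1, 22117305 to 22143026), known in the mammary gland as a progesterone-induced signal for side branching, stood at 7.08, 7.29 and 5.87 TPM. In TPM this was below WNT9A in 3 of 3 libraries, without overlap of their ranges. WNT2B (chromosome 1, 112466541 to 112521288) followed at 3.20, 3.07 and 2.63 TPM, 2.27-fold below WNT4 on the means. WNT10B, a mammary ligand gene known as an integration site of mouse mammary tumour virus (chromosome 12, 48965340 to 48971858), had 47, 65 and 50 counts, or 2.003, 2.75 and 1.80 TPM. Its range overlapped that of WNT2B above it and that of WNT3 below it.

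WNT3 (chromosome 17, 46762506 to 46818760), another integration site of that virus, had 164, 176 and 251 counts. Its level depends on the length used. The deposited length of 10063 bases adds up its exons on 3 sequences of the assembly, and gives 1.65, 1.75 and 2.12 TPM. With the 3355 exon bases on chromosome 17 alone, WNT3 stood at 5.35 ± 0.728 TPM, above WNT2B and WNT10B instead of below them. Of the 6 pairs of neighbours in the order of detected WNT genes, 3 had overlapping ranges. The order below WNT7B depends on the division by length: on CPM, counts scaled by the library total alone, WNT4 came next (9.93 ± 1.03 CPM), then WNT3 (6.99 ± 1.04 CPM) and WNT6 (6.27 ± 2.46 CPM), ahead of WNT9A (4.23 ± 0.423 CPM).

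Of the remaining 12 WNT genes 3 had few counts: WNT8B with 9, 15 and 16, WNT10A with 9, 4 and 6, and WNT3A with 2, 2 and 4 counts in replicates 1 to 3. WNT8B thus missed the minimum by 1 count in 1 library. The ligands best known for signalling without beta-catenin were among the 9 not detected: WNT5A had 3, 1 and 0 counts, WNT5B 0, 2 and 2, and WNT11 no counts. WNT2 had 0, 1 and 0 counts, WNT8A 0, 3 and 1, and WNT16 1 in each library. WNT1, the founding member of the family, WNT7A and WNT9B had no counts. In replicate 1 a count of 3 corresponded to 0.0485 TPM for WNT5A and 0.157 TPM for WNT11.

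The detected WNT genes included 1 member of each of 4 neighbouring pairs. These are the pairs of members whose starts lie within 100 kb of each other. WNT9A and WNT3A are 59.0 kb apart on chromosome 1 on opposite strands, and WNT9A had 99, 120 and 136 counts where WNT3A had 2, 2 and 4. WNT6 and WNT10A are 6.30 kb apart on chromosome 2 on the same strand. Their levels were 6.83, 8.49 and 13.9 TPM for WNT6 and 0.383, 0.169 and 0.215 TPM for WNT10A. WNT10B lies 6.59 kb from WNT1 on chromosome 12, and WNT3 lies 32.8 kb from WNT9B on chromosome 17, in both cases on opposite strands, and WNT1 and WNT9B had no counts. No other entry of the table lies between the genes of any pair. The levels of the partners did not overlap in any of the 4 pairs. This largely follows from 1 partner having at least 10 counts in every library and the other at most 9. Neighbouring pairs of other genes were not examined, so the pattern is not shown to be particular to WNT genes.

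**Figure D2:**
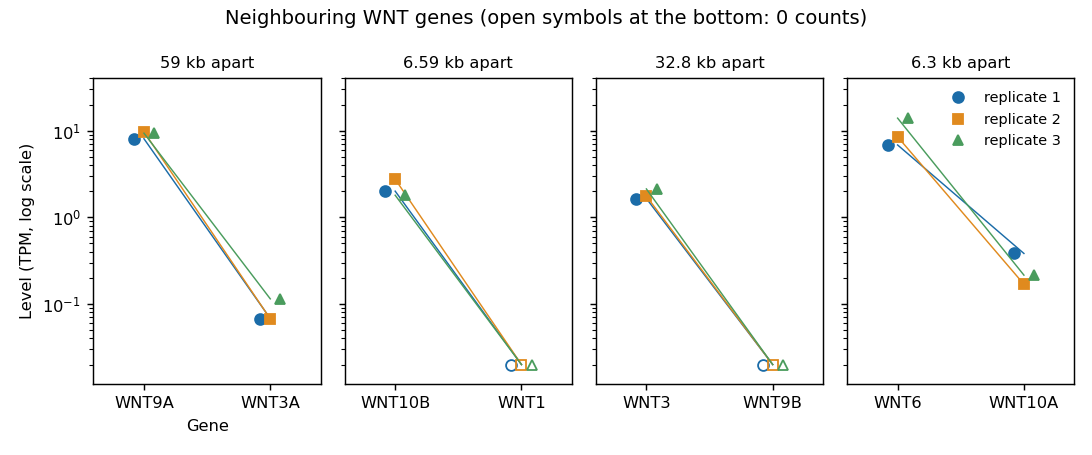
Level of both genes of each neighbouring WNT pair in each library, on a logarithmic TPM axis, with open symbols at the bottom for 0 counts and lines joining the values of a library. In every pair the left-hand gene lies higher: 8.06 to 9.70 TPM for WNT9A against 0.0674 to 0.115 TPM for WNT3A.

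Where promoters could be matched, both partners of a pair had CpG-rich ones. RefSeq promoters (GRCh38.p14, 250 bases before to 50 after the start) were matched by symbol for 25 of the 37 members, and called CpG-rich with at least 50% G and C and an observed-to-expected CpG ratio of at least 0.6. The detected members WNT7B, WNT10B, FZD2, FZD3, FZD6 and FZD7 had no matched promoter. Of the 25 windows 22 began within 300 bases of the deposited gene span or inside it. In 11 of the 25 the first bases after the start were found in a GENCODE transcript of the gene. CpG-rich were 11 of 11 detected members with a promoter, 2 of 3 with few counts, and 8 of 11 not detected, against 63.4% of 15843 protein-coding genes. The 300-base windows of WNT9A and WNT3A held 53 and 49 CpG sites, those of WNT6 and WNT10A 37 and 30, and those of WNT3 and WNT9B 28 and 38. The window of WNT1 held 34. These are counts of letters, and methylation was not analysed here. The bases before the first annotated exon are shown for WNT9A (chr1:227947976-227948182, minus strand) and its rarely counted neighbour WNT3A (chr1:228006748-228006997, plus strand), and for WNT6 (chr2:218859555-218859804, plus strand). WNT8A (chr5:138083783-138083891, plus strand) is added as an undetected gene with few CpG sites. Capitals mark CpG sites:
WNT9A: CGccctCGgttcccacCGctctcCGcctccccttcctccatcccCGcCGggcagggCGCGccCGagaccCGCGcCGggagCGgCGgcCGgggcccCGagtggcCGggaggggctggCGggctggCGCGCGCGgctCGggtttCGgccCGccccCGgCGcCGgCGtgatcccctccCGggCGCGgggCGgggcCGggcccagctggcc
WNT3A: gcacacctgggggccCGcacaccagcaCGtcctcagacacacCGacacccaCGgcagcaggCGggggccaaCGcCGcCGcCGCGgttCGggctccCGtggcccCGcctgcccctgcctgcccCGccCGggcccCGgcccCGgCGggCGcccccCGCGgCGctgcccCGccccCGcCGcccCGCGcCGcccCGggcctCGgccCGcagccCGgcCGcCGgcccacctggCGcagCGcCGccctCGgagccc
WNT6: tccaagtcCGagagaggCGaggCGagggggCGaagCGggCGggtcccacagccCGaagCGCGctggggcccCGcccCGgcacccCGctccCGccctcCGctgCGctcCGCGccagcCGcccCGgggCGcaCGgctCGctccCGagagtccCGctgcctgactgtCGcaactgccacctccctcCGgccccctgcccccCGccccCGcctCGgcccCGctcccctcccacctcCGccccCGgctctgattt
WNT8A: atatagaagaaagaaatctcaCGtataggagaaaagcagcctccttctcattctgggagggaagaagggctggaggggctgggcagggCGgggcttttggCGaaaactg

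In these stretches WNT9A held 16.4 CpG sites per 100 bases, WNT3A 15.2, WNT6 12.8 and WNT8A 2.75. The printed promoters of WNT9A, a detected gene, and WNT3A, with at most 4 counts in a library, thus both had many CpG sites. The GC box GGGCGG, sought on both strands, was present in 10 of 11 windows of detected members, 9 of 11 of members not detected and 58.5% of all windows.

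Frizzled receptor transcripts were spread over 9 genes, led by FZD6. FZD6, known for planar polarity and for restraining beta-catenin signalling (chromosome 8, 103298433 to 103332866), stood at 38.7, 36.5 and 28.5 TPM in replicates 1, 2 and 3, from 1509, 1432 and 1318 counts. It was the highest Frizzled gene in each library, and replicate 3 was the lowest. FZD6 took 38.3 ± 2.89% of the summed Frizzled TPM, and stood 2.50-fold above FZD4 on the means.

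FZD4, a receptor for Wnt ligands and for Norrin (chromosome 11, 86945675 to 86955398), was measured at 15.5, 13.9 and 12.1 TPM. It shares 1399 exon bases, 18.9% of its length, with PRSS23 on the opposite strand, which had 166, 150 and 165 counts. Whether the counting used strand is not given in the sources used here, so reads of this stretch cannot be assigned. FZD5 (chromosome 2, 207762586 to 207769419) stood at 10.7, 11.4 and 8.77 TPM, and FZD2 (chromosome 17, 44557444 to 44561262) at 10.3, 10.7 and 8.95 TPM. The ranges of these 2 receptors overlapped, and FZD5 was the higher in 2 of 3 libraries.

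FZD7 (chromosome 2, 202034587 to 202038437), a receptor linked to stem and progenitor cells, stood at 6.19, 6.50 and 8.56 TPM and was highest in replicate 3. FZD1 (chromosome 7, 91264468 to 91268817) followed at 5.27, 6.01 and 6.33 TPM, with an overlapping range. FZD3 (chromosome 8, 28494205 to 28574268), with FZD6 a planar polarity receptor, stood at 4.22, 3.81 and 3.79 TPM, and FZD8 (chromosome 10, 35638249 to 35641434) at 3.49, 3.87 and 3.66 TPM, again overlapping. FZD9 (chromosome 7, 73433779 to 73436120) was just above the minimum, with 13, 17 and 15 counts or 0.611 ± 0.101 TPM. FZD10 (chromosome 12, 130162459 to 130165740) had no counts. Of the 8 pairs of neighbours in the order, 3 had overlapping ranges. On CPM, FZD6, FZD4 and FZD5 led in the same order, and FZD3, which has a deposited length of 13787 bases, came next at 20.5 ± 1.14 CPM.

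Grouped by known sequence relationship, FZD3 and FZD6 together made up the most of the Frizzled transcripts. They summed to 43.0, 40.3 and 32.3 TPM in replicates 1 to 3, or 42.7 ± 2.73% of the family. FZD1, FZD2 and FZD7 summed to 21.8, 23.2 and 23.8 TPM (25.7 ± 3.29%). FZD5 and FZD8 reached 14.0 ± 1.44 TPM and FZD4 13.9 ± 1.70 TPM, with overlapping ranges. FZD9 and FZD10 held 0.680 ± 0.0945%.

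**Figure D3:**
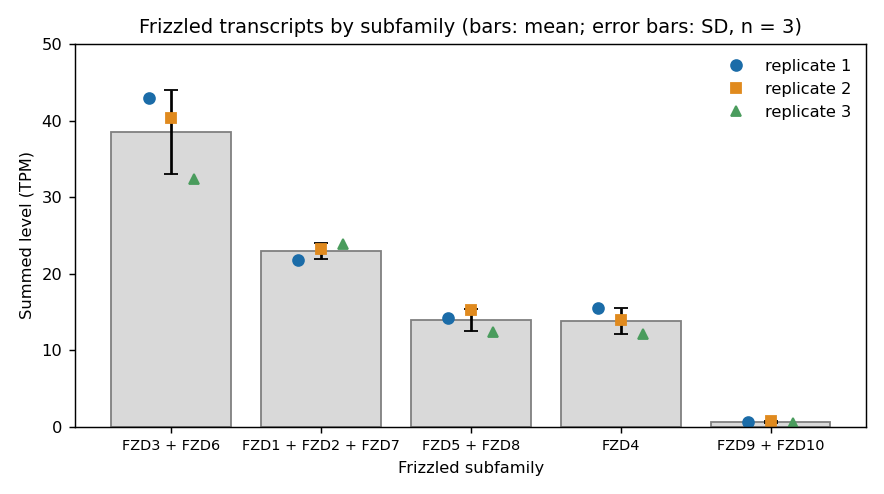
Summed TPM of the Frizzled genes by subfamily, with bars for the mean, error bars for the SD and symbols for replicates 1 to 3. FZD3 with FZD6 lies highest, between 32.3 and 43.0 TPM, FZD1, FZD2 and FZD7 follow between 21.8 and 23.8 TPM, and FZD9 with FZD10 lies lowest at 0.611 TPM on average.

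In TPM, receptor and ligand transcripts were close in sum in replicates 1 and 2, and WNT transcripts were higher in replicate 3. The Frizzled genes summed to 95.02, 93.4 and 81.3 TPM and the WNT genes to 93.1, 103 and 127 TPM in replicates 1, 2 and 3. The log2 ratio of Frizzled over WNT was 0.03, −0.14 and −0.65, with a mean of −0.25 ± 0.35 (SD, n = 3; below 0 in 2 of 3 libraries). By the exact sign-flip permutation test (two-sided), p was 0.5, and 0.25 is the smallest that 3 libraries can give. On CPM the mean ratio was above 0, at 0.29. With exon lengths on the main chromosome, which raise WNT3, it was −0.30 and below 0 in 3 of 3 libraries (exact permutation p = 0.25).

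The DKK and SFRP antagonist genes were nearly silent apart from DKK1. DKK1, a secreted inhibitor that binds LRP5 and LRP6 (chromosome 10, 52314281 to 52317657), stood at 6.38, 5.88 and 5.001 TPM, from 114, 106 and 106 counts. It held 96.2 ± 2.38% of the summed DKK TPM. Of its exon bases 227, or 12.6%, overlap the antisense gene PRKG1-AS1 in the GENCODE annotation. DKK2 (chromosome 4, 106921802 to 107036296) had 0, 1 and 4 counts and DKK4 3, 1 and 0. DKK3, a divergent member of the family (chromosome 11, 11962996 to 12009370), had 2, 1 and 0 counts.

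The promoter of DKK1, itself known as a target of beta-catenin signalling, is shown (chr10:52314031-52314280, plus strand). DKK1 was the single detected gene of the DKK and SFRP families. Capitals mark a TATA box, TATAAA, 30 bases before the start, and CTTTGTT, a sequence that TCF and LEF factors can bind, 76 bases before it:
DKK1: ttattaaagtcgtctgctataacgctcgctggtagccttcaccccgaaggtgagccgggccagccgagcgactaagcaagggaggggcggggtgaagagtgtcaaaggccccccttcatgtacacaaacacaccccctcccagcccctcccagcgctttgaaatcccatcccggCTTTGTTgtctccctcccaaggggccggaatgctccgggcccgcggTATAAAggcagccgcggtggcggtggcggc

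Sought on both strands, TATAAA was found in 9.63% and CTTTGTT in 4.14% of the 15843 windows, and among the 25 members' windows each was found in 2. The related sequence CTTTGAT was in none of the 25 and in 1.94% of all windows. A match describes letters and is not shown to be a bound site.

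SFRP transcripts were close to absent. SFRP2 (chromosome 4, 153780590 to 153789076), SFRP4 (chromosome 7, 37905933 to 37916923) and SFRP5 (chromosome 10, 97766751 to 97771999) had no counts, and SFRP1 had 2, 0 and 0. In replicate 1 a count of 3 corresponded to 0.0678 TPM for SFRP1 and 0.161 TPM for SFRP5. Over the libraries the SFRP genes held 2 of the 340 counts of both antagonist families, or 0.588% (exact Clopper-Pearson 95% interval 0.0713 to 2.11%, counting error only). With 0.01 TPM added, the log2 ratio of SFRP over DKK was −6.95, −9.25 and −8.996, or −8.40 ± 1.26 (SD, n = 3; below 0 in 3 of 3 libraries; two-sided exact permutation p = 0.25, the smallest possible). Its size rests on the added value, and with 0.1 TPM it was −5.74.

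On chromosome 8, 4 members share a chromosome with FGFR1 (38411138 to 38468834, 88.0 ± 3.86 TPM), and their levels differed widely. SFRP1 (41261957 to 41309471) lies 2.79 Mb and DKK4 (42374068 to 42377156) 3.91 Mb from it, and neither was detected. The 12 protein-coding entries between FGFR1 and SFRP1 included 8 that were detected, with a median of 5.82 TPM. Over all protein-coding entries 67.4% were detected, with a median of 8.09 TPM. Between FGFR1 and DKK4, 15 of 23 were detected (median 14.1 TPM). Towards FZD3 the numbers were 33 of 43 (12.5 TPM), and towards FZD6 161 of 246 (12.8 TPM). FZD3, 9.84 Mb away on the other side, and FZD6, 64.8 Mb away, were detected. DNA copy number was not analysed here.

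Variation between the replicates went beyond Poisson sampling for 7 of the 17 members that passed the filter on low counts (chi-square test after TMM scaling in edgeR, Benjamini-Hochberg adjusted over 14453 genes). This is 41.2% of the members tested, against 41.6% of all genes tested, so the share of the members was that of the background. All 7 had their highest or their lowest level in replicate 3, the deepest library. WNT7B, WNT6, FZD7 and WNT3 were highest there (19.4% of all genes tested were called and highest in replicate 3), and FZD6, FZD4 and FZD5 were lowest there (18.6%). Most called genes shared this pattern. Of the 6018 genes called among all tested, 2804 were highest and 2694 lowest in replicate 3, so it is not particular to the members. Without replicate 3 the test called 1 member, WNT7B, and 8.04% of all genes.

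**Figure D4:**
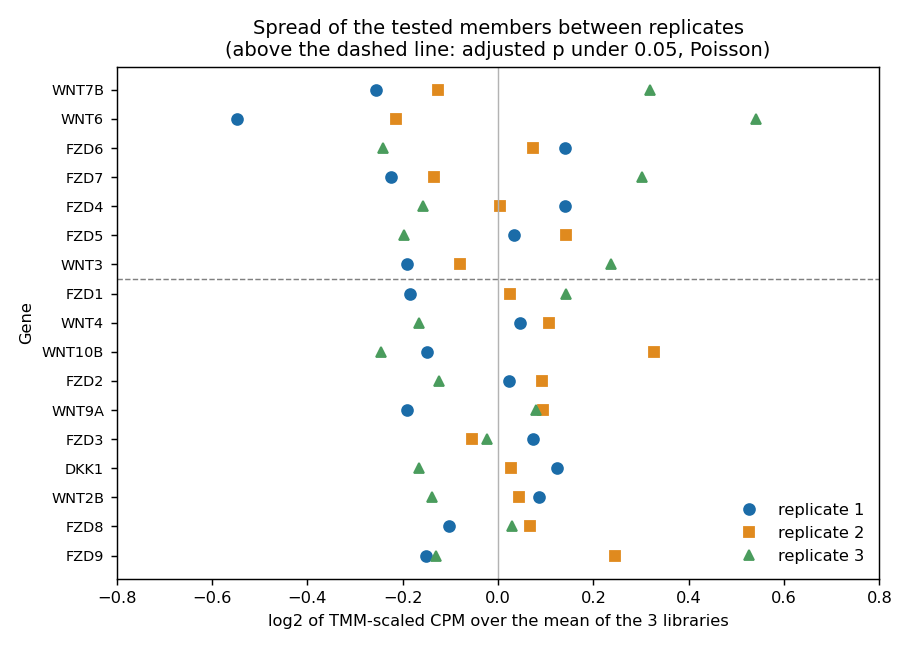
Deviation of each tested member from its mean, as log2 of TMM-scaled CPM, with symbols for replicates 1 to 3 and the genes ordered by adjusted p of the Poisson test, the 7 that passed above the dashed line. In WNT7B, WNT6, FZD7 and WNT3 replicate 3 lies to the right, and in FZD6, FZD4 and FZD5 to the left.

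WNT7B was at 91.8, 101 and 137 CPM with TMM scaling in replicates 1, 2 and 3, a span of 1.49-fold (edgeR-scaled Poisson test, adjusted p = 3.81e-63). It was also the single member that varied beyond the trended negative binomial dispersion of edgeR (adjusted p = 0.0255), which 1.22% of all genes did. With 2 libraries the call was lost in each case. The span was still 1.36-fold without replicate 1 (trended dispersion, adjusted p = 0.229) and 1.49-fold without replicate 2 (0.292), and it was 1.09-fold without replicate 3 (0.999). WNT6 spanned 2.13-fold, the widest of the tested members, at 4.30, 5.42 and 9.14 CPM (Poisson adjusted p = 3.60e-12, trended dispersion adjusted p = 0.0676). FZD6 moved the other way, at 56.4, 53.9 and 43.4 CPM (1.62e-11 and 0.902 by the same tests).

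FZD7 spanned 1.44-fold, WNT3 1.35-fold, FZD5 1.27-fold and FZD4 1.23-fold. The 10 tested members that did not pass, DKK1, FZD2 and WNT4 among them, spanned from 1.09-fold for FZD3 to 1.49-fold for WNT10B. By rank alone, 6 of the 8 luminal markers were highest in replicate 3, such as KRT19 at 1482, 1733 and 2222 CPM. CDH1, at 174, 162 and 154 CPM, and EPCAM, at 256, 260.5 and 255 CPM, were lowest there. ESR1, among the 6, and EPCAM did not pass the Poisson test (adjusted p = 0.107 and 0.518). No luminal marker passed the trended dispersion test (KRT19 adjusted p = 0.0916). Among all genes tested, 19.4% were called by the Poisson test and highest in replicate 3, and 18.6% called and lowest. These shares require a call, so they cannot be set against the 6 of 8, which is by rank alone. The share of all genes highest in replicate 3 by rank alone was not computed. Among fibroblast markers COL3A1 was lowest in replicate 3, at 348, 376 and 291 CPM, and COL1A1 stood at 23.5, 23.8 and 23.4 CPM. The part of cell composition or depth in the shift of the members was not tested.

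Both genes that Wnt ligands need for secretion, PORCN and WLS, were detected, WLS at a low level. PORCN, the acyltransferase that attaches the lipid to Wnt proteins, stood at 20.2 ± 2.08 TPM. WLS, which carries Wnt proteins to the cell surface, was low at 1.11, 1.20 and 0.689 TPM (34, 37 and 25 counts), far below WNT7B in each library. The other 3 genes of this list of 5 code for enzymes that inactivate Wnt proteins. Of them NOTUM, which removes the lipid, was detected with 22, 39 and 55 counts (1.63 ± 0.568 TPM), and TRABD2B had 12, 6 and 5.

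Of 7 co-receptor genes 6 were detected, beside 67.4% of protein-coding entries, and 4 reached 10 TPM. RYK, a Wnt-binding receptor-like kinase, stood at 58.1 ± 2.12 TPM and LRP5, a co-receptor for beta-catenin signalling, at 56.2 ± 5.24 TPM. ROR2, a receptor for WNT5A, reached 32.2 ± 0.357 TPM although WNT5A had at most 3 counts, and LRP6 stood at 14.4 ± 0.640 TPM. PTK7 stood lower, at 7.72 ± 0.821 TPM, and ROR1 at 0.361 ± 0.0549 TPM. MUSK had no counts.

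Inhibitors outside the DKK and SFRP symbols were detected in 4 of 10 cases, beside 67.4% of protein-coding entries. KREMEN2, a membrane partner of DKK1 in the removal of LRP5 and LRP6, stood highest at 64.6, 63.2 and 78.4 TPM, above DKK1 in each library. TPBG stood at 19.0 ± 2.30 TPM, KREMEN1 at 6.37 ± 0.284 TPM and DKKL1 at 1.20 ± 0.241 TPM. The secreted inhibitor genes WIF1 and CER1 had no counts.

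Of the 9 genes of the R-spondin module, which regulates Frizzled levels at the membrane, 3 were detected, beside 67.4% of protein-coding entries. LGR4, an R-spondin receptor, stood at 26.9 ± 2.99 TPM, and the ubiquitin ligases RNF43 and ZNRF3, which remove Frizzled proteins, at 26.3 ± 0.991 and 7.32 ± 0.665 TPM. None of the 4 R-spondin ligand genes reached the minimum in every library. RSPO4 had few counts, with 3, 2 and 11, RSPO1 had 2, 1 and 0, and RSPO2 and RSPO3 had 0. LGR6 had 19, 8 and 13 counts.

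Inside the cell, 11 of 12 genes of Dishevelled and the destruction complex were detected, with a median of 47.6 TPM. Over the protein-coding entries, 67.4% were detected, with a median of 8.09 TPM, which also applies to the nuclear factors below. CSNK1A1, a kinase that primes beta-catenin for breakdown, stood at 667 ± 46.2 TPM, CTNNB1, beta-catenin itself, at 281 ± 13.0 TPM, GSK3A at 113 ± 5.22 TPM and DVL3 at 85.8 ± 1.397 TPM. Of 13 nuclear factors 11 were detected (median 23.7 TPM), led by PYGO2 at 132 ± 2.29 TPM and the corepressor gene TLE3 at 55.1 ± 4.47 TPM. CTNNBIP1, an inhibitor of beta-catenin, stood at 45.3 ± 5.33 TPM and BCL9L at 34.3 ± 0.943 TPM.

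Of 11 genes known as feedback targets of beta-catenin signalling 6 were detected, beside 67.4% of protein-coding entries and 54.9% of all entries. Their median was 0.802 TPM, beside 1.5 TPM over all entries and 8.09 TPM over protein-coding entries, and 1 reached 10 TPM, RNF43. After RNF43 and ZNRF3, SP5 stood at 1.99 ± 0.533 TPM and NOTUM next. AXIN2, the member most used as a readout and named here after its values were seen, had 4, 4 and 8 counts (0.117 ± 0.0381 TPM). The planar polarity genes were detected in 8 of 10 cases (median 38.6 TPM), beside 67.4% of protein-coding entries. CELSR1 stood at 84.0 ± 8.17 TPM, VANGL1 at 77.2 ± 0.120 TPM, SCRIB at 68.8 ± 3.96 TPM and DAAM1 at 50.4 ± 1.99 TPM. Levels of these lists in 1 group describe transcripts and do not show whether the pathway was active.

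**Figure D5:**
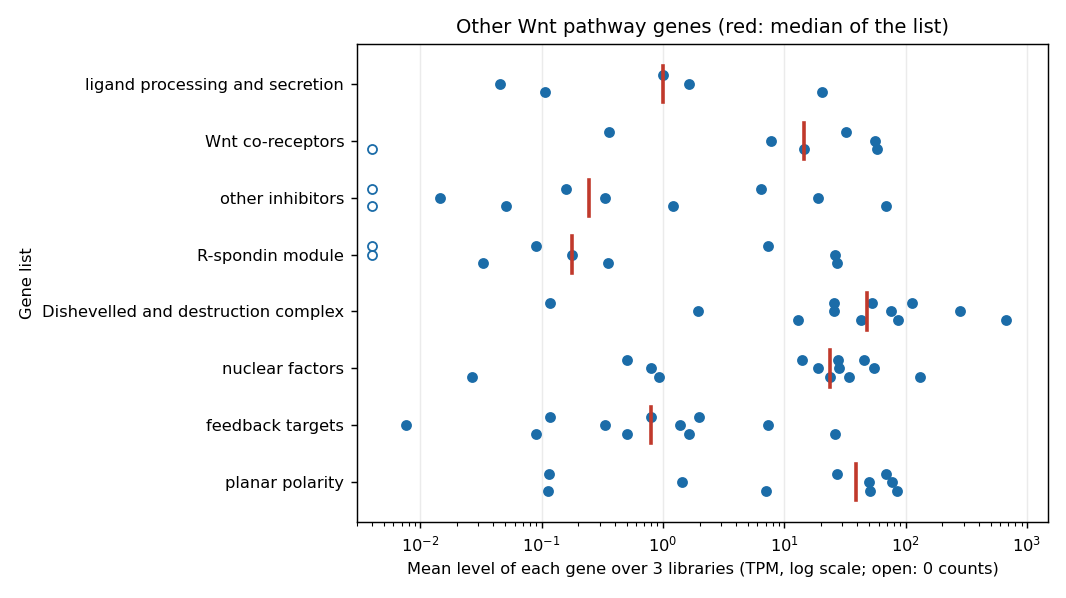
Mean level of each gene of 8 further Wnt pathway lists on a logarithmic TPM axis, with a red line for the median of the list and open symbols for 0 counts. The medians lie at 47.6 TPM for Dishevelled and the destruction complex and 38.6 TPM for planar polarity, and at 0.802 TPM for feedback targets and 0.177 TPM for the R-spondin module.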

How the data were processed

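Poly-A RNA was sequenced in 3 libraries prepared with a stranded kit, per the labels' protocols. The deposited values were expected counts per gene, raw and partly fractional (5 of the 37 members had fractional values), with a gene length that equals the merged length of the listed exons over every sequence. The submitters' processing notes name hg38, TopHat, Subread and featureCounts. Versions, strand and the handling of reads with multiple matches are not given in the sources used here. TPM and CPM were computed from the deposited counts. Counts were rounded for edgeR 4.0.16 (TMM factors 1.01, 1.00 and 0.990; intercept only; filterByExpr), and DESeq2 1.42.0 gave alternative size factors. Chi-square tests used Poisson sampling, with trended dispersion as an alternative, adjusted over all genes at 0.05. They were also run on simulated counts with 200 genes changed, under Poisson sampling or a constant dispersion. That setting is simpler than these data, so it cannot show how the tests behave here. Summed TPM ratios used the exact sign-flip test. Coordinates are 1-based on hg38. All members were named, with the 4 highest genes of each other pathway list. Named outside that rule were PTK7, ROR1, MUSK, WIF1, CER1, the R-spondin ligand genes and AXIN2. Members and lists were chosen with earlier results of these data known. Tests between replicates measure the spread of these libraries alone. Protein-coding status came from RefSeq symbols.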

Additional observations from a re-analysis of the deposited data

How the results depend on the processing

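The number of detected members was between 16 and 21 under a minimum of 1 or 20 counts, a mean of 1 TPM, or with each replicate left out (17 to 18). The log2 ratio of Frizzled over WNT was −0.25, and 0.29 on CPM, so its direction depends on the division by length. Without WNT7B, chosen after seeing the data, it was 1.42, which the share of WNT7B in the WNT sum fixes. It was −0.30 with exon lengths on the main chromosome, and −0.39 to −0.05 with 1 replicate left out. SFRP over DKK (−9.12 to −7.97 with 1 replicate left out, −5.74 with 0.1 TPM added) has a sign that the SFRP counts of 2, 0 and 0 fix, so its alternatives say nothing about stability; detected members alone gave no value, since no SFRP gene was detected. Of 7 members varying between replicates, 1 remained under the trended negative binomial dispersion, also with DESeq2 size factors (chosen after seeing the data), and 1 to 8 were called with 1 replicate left out, the 1 without replicate 3; the cause was not tested. Among the detected members only WNT3 has another exon length on the main chromosome, and its level moved by over 1 SD with it. No paired analysis was possible because the series has 1 group. Depth limits the members with few counts, 3 libraries limit the sign-flip p to 0.25, and the libraries come from 1 cell line without a second condition.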
